A study of Mus musculus with 4 samples.

Results

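The cells described here were C1q-positive macrophages of the mouse liver, 353 of the 9300 cells measured (3.796%). Cells were selected on their own transcripts. A cell was taken when it held at least 5 UMIs (unique molecular identifiers, each standing for 1 captured RNA molecule) of *C1qa*, *C1qb* and *C1qc* together, no UMI of the T cell genes *Cd3d*, *Cd3e* and *Cd3g*, and at most 2 UMIs of the B cell genes *Cd79a*, *Cd79b* and *Ms4a1*. Mononuclear cells had been prepared from livers of C57BL/6 mice aged 8 to 10 weeks by enzymatic dissociation and a Percoll gradient, and their RNA was counted per cell by droplet sequencing of 5′ transcript ends. The 4 conditions were untreated mice (Naïve) and mice examined 24 hours after concanavalin A (ConA), a plant lectin that activates T cells, followed by vehicle (ConA+Veh), by 2,3,7,8-tetrachlorodibenzo-p-dioxin (ConA+TCDD) or by 6-formylindolo[3,2-b]carbazole (ConA+FICZ). Wherever 4 values follow one another below, their order is Naïve, ConA+Veh, ConA+TCDD, ConA+FICZ. There was 1 library for each condition, and the sex and number of the mice behind a library are not given in the sources used here. No difference between conditions could therefore be tested against the spread between animals, and every interval below is a 95% interval of counting error only.

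C1q is the recognition molecule of the classical complement pathway. It is assembled from A, B and C chains, each encoded by its own gene, and macrophages and immature dendritic cells make most of it. C1q binds immune complexes and dying cells and helps phagocytes to take them up. The resident macrophages of the liver, Kupffer cells, are a well-known source of C1q, and monocytes that enter an injured liver can switch it on as they mature into macrophages. TCDD and FICZ are both ligands of the aryl hydrocarbon receptor (AhR), a transcription factor whose classic target genes include *Cyp1a1*, *Cyp1b1* and *Tiparp*.

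The 3 C1q genes lie side by side on the minus strand of mouse chromosome 4 in build GRCm38 (mm10). *C1qb* spans 136880129 to 136886187, *C1qc* spans 136889804 to 136893065, and *C1qa* spans 136895917 to 136898803. Promoter sequence from RefSeq (build GRCm38.p6) was at hand for *C1qb* and *C1qc*, whose RefSeq start, used to place matches, is not the same base as the end of the gene span given here, and the stretch of 300 bases around each start is shown because these neighbouring genes defined the cells and were read out together in them. Capitals mark GAGGAA or its reverse complement TTCCTC, the purine-rich letters of ETS family factors such as PU.1, which were chosen for the search after the data had been seen. *C1qb*, minus strand of chr4:136886151-136886450, with 1 match that begins 30 bases before the start:
C1qb: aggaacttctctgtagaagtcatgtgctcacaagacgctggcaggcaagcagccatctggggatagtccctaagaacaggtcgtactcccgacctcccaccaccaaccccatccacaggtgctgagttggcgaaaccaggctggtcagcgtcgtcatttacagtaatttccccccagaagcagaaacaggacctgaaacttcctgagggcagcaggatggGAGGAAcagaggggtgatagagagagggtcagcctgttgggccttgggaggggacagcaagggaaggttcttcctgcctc
*C1qc*, minus strand of chr4:136892865-136893164, with 1 match that begins 193 bases before the start:
C1qc: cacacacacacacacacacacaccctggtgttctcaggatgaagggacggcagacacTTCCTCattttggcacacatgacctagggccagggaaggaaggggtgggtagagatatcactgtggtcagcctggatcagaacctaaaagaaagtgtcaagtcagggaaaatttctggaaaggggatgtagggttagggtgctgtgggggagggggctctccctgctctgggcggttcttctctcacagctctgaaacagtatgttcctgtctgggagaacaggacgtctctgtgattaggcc
These letters are common, standing in 9289 of 32851 promoter windows of the same length (28.3%). The AhR core letters GCGTG, or on the other strand CACGC, were absent from both windows and present in 10639 of the 32851 (32.4%).

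Before any level is given, the depth behind it needs stating. The 4 libraries held 5952445, 19252211, 12077209 and 16017797 UMIs. The C1q-positive cells contributed 158604, 1412854, 291943 and 1368906 of these UMIs in the same order, so a single UMI stood for 6.31, 0.708, 3.43 and 0.731 CPM (UMIs per 1,000,000 UMIs of the C1q-positive cells of that library, the scale used throughout). The median C1q-positive cell held 9338, 6677, 4971 and 5945 UMIs in turn. Levels in Naïve and ConA+TCDD thus rested on few cells, and a gene read from 1 cell could set the value there. Between 4 and 15 barcodes were shared by any 2 libraries. Only 1 shared barcode, in ConA+Veh and ConA+TCDD, belonged to a C1q-positive cell, and none was C1q-positive in both.

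C1q-positive cells were scarce in the Naïve library and common in the libraries of ConA+Veh and ConA+FICZ, with ConA+TCDD between. They numbered 14 of 2086 cells in Naïve (0.671%, 0.367 to 1.12), 151 of 2779 in ConA+Veh (5.43%, 4.62 to 6.34), 29 of 1880 in ConA+TCDD (1.54%, 1.04 to 2.21) and 159 of 2555 in ConA+FICZ (6.22%, 5.32 to 7.23). The exact binomial intervals of ConA+Veh and ConA+FICZ overlapped, and those of Naïve and ConA+TCDD lay below both. As log2 ratios of shares, ConA+Veh stood 3.02 (2.23 to 3.92) above Naïve. ConA+TCDD stood at -1.82 (-2.44 to -1.24) against ConA+Veh, and ConA+FICZ at 0.20 (-0.13 to 0.53), a difference that all but vanished without cells over 10% mitochondrial UMIs, at shares of 6.34% in ConA+Veh and 6.36% in ConA+FICZ. ConA+TCDD and ConA+FICZ were both set against the same ConA+Veh library. A lower share can mean fewer of these cells or more of the others in the preparation, and the 2 cannot be told apart from shares. B cells were 50.8% of the Naïve library and 25.5% of the ConA+Veh library. The shares are of the mononuclear preparations and not of the liver, and how well resident macrophages were recovered was not tested.

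The same order appeared within phagocytes. Cells with at least 10 UMIs of *Lyz2*, *Cst3* and *Csf1r* together, at most 1 C1q UMI, at most 5 UMIs of the neutrophil genes *S100a8* and *S100a9* and no lymphocyte transcripts above the same limits served as other phagocytes, and numbered 77, 81, 45 and 37 in the 4 libraries. C1q-positive cells were 14 of the 91 cells of both kinds in Naïve (15.4%), 151 of 232 in ConA+Veh (65.1%), 29 of 74 in ConA+TCDD (39.2%) and 159 of 196 in ConA+FICZ (81.1%). The other phagocytes were themselves mixed, since granulocyte progenitor genes reached 106, 3171, 4267 and 2653 CPM in them and stellate or fibroblast genes 1005, 244, 816 and 465 CPM.

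**Figure D1:**
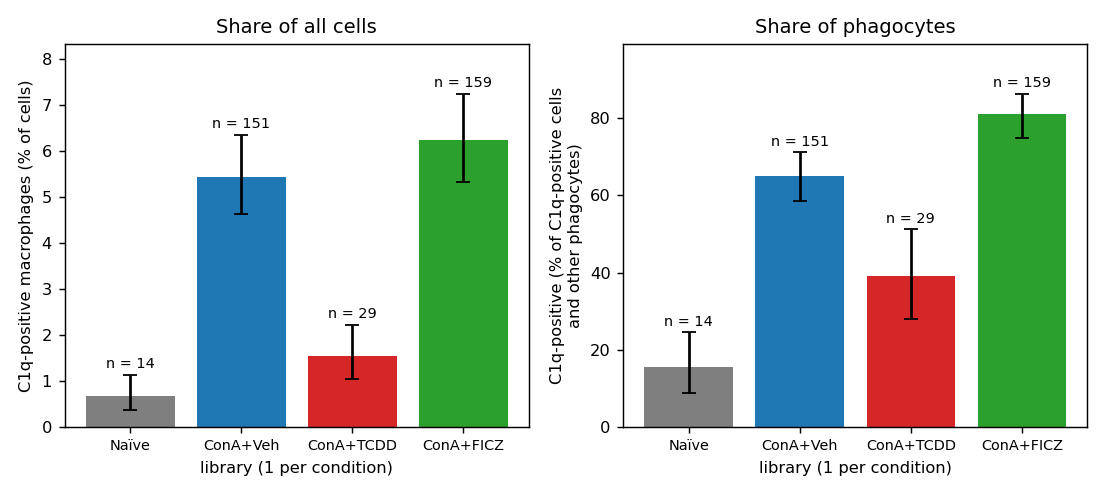
C1q-positive macrophages by library (x axis, 1 library per condition) as a percentage of all cells (left) and of C1q-positive cells and other phagocytes together (right). Bars are shares, whiskers are exact 95% binomial intervals and n is the number of C1q-positive cells. On both scales Naïve is lowest and ConA+FICZ highest, and ConA+TCDD (1.54% of cells) lies below ConA+Veh (5.43%).

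Few of the C1q-positive cells lay near the threshold, but in ConA+Veh and ConA+FICZ more cells lay just outside it than just inside. The C1q-positive cells held a median of 40, 32, 22 and 38 C1q UMIs in the 4 libraries, with a highest value of 440. Just inside the threshold, with 5 or 6 C1q UMIs, were 1, 8, 2 and 8 cells. Just outside it, with 3 or 4, were 1, 18, 1 and 15 cells, and their median size was 1228 UMIs in ConA+Veh and 1057 in ConA+FICZ. A C1q UMI was also carried by 2.80% of T cells in ConA+Veh, 2.81% in ConA+FICZ, 1.99% in ConA+TCDD and 0 of 503 in Naïve, from free RNA or doublets, which were not told apart. The limit on T cell transcripts left out 30 cells in ConA+Veh and 7 in ConA+FICZ that carried enough C1q, and the limit on B cell transcripts left out 2 and 3. Whether those cells were doublets or macrophages with free T cell RNA was not tested, and with them included the ConA+Veh share was 6.58% and the ConA+FICZ share 6.61%.

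All 3 C1q chains were read from most of the chosen cells. *C1qa*, *C1qb* and *C1qc* were found together in 10 of 14 cells in Naïve (71.4%), 121 of 151 in ConA+Veh (80.1%), 20 of 29 in ConA+TCDD (69.0%) and 126 of 159 in ConA+FICZ (79.2%). *C1qb* made up 53.8%, 57.7%, 61.2% and 57.5% of the C1q UMIs. Since C1q chose the cells, the levels that follow are a description. *C1qa*, the A chain, stood at 1406, 939, 541 and 1343 CPM in the 4 libraries. *C1qb*, the B chain, stood at 3285, 3509, 2137 and 4159 CPM. *C1qc*, the C chain, stood at 1419, 1636, 815 and 1732 CPM. Each chain was lowest in ConA+TCDD, and the 3 chains together summed to 6110, 6083, 3494 and 7234 CPM in the 4 libraries.

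Across all genes, those at the head of the comparison between C1q-positive cells and the rest were macrophage genes. By the lowest ratio over the 4 libraries, *C1qb*, *C1qc* and *C1qa* led with 71.1, 70.5 and 63.2 times the CPM of all other cells, as the selection made certain. They were followed by *Ccl12* (62.3), a monocyte-attracting chemokine, *Cbr2* (45.3), a carbonyl reductase of tissue macrophages, and *Siglec1* (42.8), the sialic acid receptor CD169. *Folr2* (40.4), a folate receptor of resident-type macrophages, *Msr1* (38.4), a scavenger receptor, and *P2ry6* (32.3), a nucleotide receptor, were also among the first 10. *Siglec1* and *Folr2* were low in absolute terms after ConA, with 14.2 CPM of *Folr2* in ConA+Veh against 120 in Naïve.

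General macrophage genes were present throughout, but the genes that define Kupffer cells were at or near 0. All 12 general macrophage genes were detected in each library, with a sum of 9092, 7816, 5830 and 8521 CPM in the 4 libraries. *Csf1r*, the receptor for the growth factor on which macrophages depend, stood at 454, 204, 192 and 295 CPM, and *Adgre1*, encoding F4/80, at 75.7, 59.5, 30.8 and 65.0 CPM. Among the Kupffer cell genes, the lectin gene *Clec4f* gave 0, 10, 2 and 0 UMIs. The complement receptor gene *Vsig4* gave 0, 3, 2 and 0 UMIs, *Timd4*, a receptor for dying cells, gave 0, 5, 1 and 0, and the scavenger receptor gene *Marco* gave 0, 13, 1 and 0. A UMI of any of these 4 genes was present in 0 of 14 cells in Naïve, with an exact upper bound of 23.2%, 7 of 151 after ConA+Veh (4.64%), 2 of 29 after ConA+TCDD (6.90%) and 0 of 159 after ConA+FICZ (upper bound 2.29%). The whole list of 14 Kupffer cell genes summed to 656, 616, 442 and 577 CPM, led by *Cd163* in Naïve (170 CPM) and by *Id3*, which other cells also transcribe, in the libraries after ConA.

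Genes of inflammatory monocytes were abundant in the same cells. *Ly6c2*, encoding the surface protein Ly6C, stood at 971, 1534, 1240 and 1464 CPM in the 4 libraries, against 363, 456, 222 and 328 CPM in T cells. *Ccr2*, the receptor that brings monocytes out of the bone marrow, stood at 404, 214, 243 and 316 CPM, against at most 61.0 in T cells. A UMI of *Ly6c2* or *Ccr2* was found in 12 of 14 cells (85.7%), 119 of 151 (78.8%), 24 of 29 (82.8%) and 137 of 159 (86.2%). The list of 11 monocyte genes was complete in each library and summed to 7011, 7923, 7813 and 7179 CPM, with *Plac8* at its head. The other phagocytes held 5300, 3513, 3763 and 6073 CPM of the same list. UMIs of both macrophage and monocyte genes were thus read in the C1q-positive cells of all 4 libraries, including Naïve. Free RNA was not subtracted, so whether single cells transcribed both kinds was not tested. The cells are called C1q-positive macrophages here without a narrower name.

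**Figure D2:**
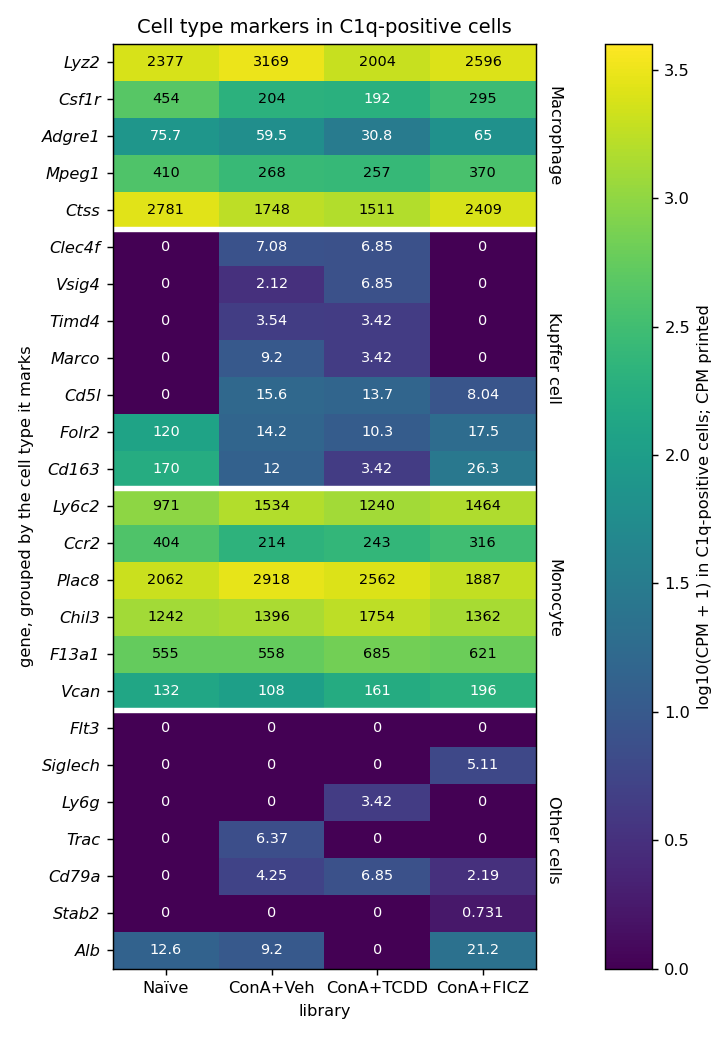
Markers of macrophages, Kupffer cells, monocytes and other cells (rows) in the C1q-positive cells of each library (columns). Colour is log10(CPM + 1) and the number printed is the CPM. Monocyte and general macrophage genes are filled in every column, while *Clec4f*, *Vsig4*, *Timd4* and *Marco* stay below 10 CPM and are 0 in Naïve and ConA+FICZ.

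Transcripts of other cell types were also measured in the C1q-positive cells. The selection itself removed cells with Cd3 transcripts and limited B cell transcripts, so the low T and B cell sums follow in part from it. T cell genes summed to 0, 20.5, 10.3 and 9.50 CPM, NK cell genes to 0, 23.4, 17.1 and 5.84 CPM and B cell genes to 25.2, 42.5, 20.6 and 37.3 CPM, of which *Ighm* was the largest. The 10 genes of conventional dendritic cells summed to 88.3, 70.1, 68.5 and 67.9 CPM, most of it *Batf3* (82.0, 59.5, 58.2 and 54.8 CPM), and *Flt3*, *Xcr1*, *Cd209a*, *Itgae* and *Fscn1* were at 0 in each library. The plasmacytoid dendritic cell list summed to 958, 1268, 925 and 1015 CPM, nearly all of it *Bst2*, which interferon induces in many cell types and which stood at 799, 1230, 893 and 1072 CPM in the other phagocytes. *Siglech* of that list was at 0 except in ConA+FICZ. Stellate or fibroblast genes gave 1 UMI in ConA+Veh and 1 in ConA+FICZ and none elsewhere. Endothelial genes summed to 259, 183, 212 and 229 CPM, nearly all of it *Fcgr2b*, an Fc receptor that macrophages also carry, while *Clec4g* and *Oit3* were at 0. Hepatocyte genes summed to 82.0, 71.5, 44.5 and 129 CPM. Neutrophil and granulocyte progenitor genes were also present. The neutrophil list summed to 1639, 1235, 1377 and 576 CPM, led by *S100a8*, of which 99.1% in Naïve and 83.8% in ConA+TCDD came from a single cell. *Ly6g*, the defining neutrophil gene, was at 0 except in ConA+TCDD, and *Camp* was at 0 throughout. The granulocyte progenitor list summed to 240, 362, 695 and 557 CPM, led by *Prtn3*.

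The C1q-positive cells were not uniform. In ConA+Veh and ConA+FICZ, where they were many, they were ranked by C1q UMIs per UMI of the cell and divided into a lowest, a middle and a highest group of 50 to 53 cells each. Cell cycle genes summed to 2424 CPM in the lowest group, 1295 in the middle and 760 in the highest in ConA+Veh, and to 2082, 987 and 486 CPM in ConA+FICZ. Granulocyte progenitor genes summed to 661, 193 and 93.6 CPM and to 1251, 101 and 60.2 CPM in the same order. Both sums were largest in the group with the least C1q. Lysosome genes ran the other way, from 10133 through 12277 to 15440 CPM in ConA+Veh and from 10500 through 13060 to 17888 CPM in ConA+FICZ. *Apoe*, the lipid carrier that mature macrophages secrete, stood at 245, 423 and 1162 CPM and at 462, 886 and 984 CPM. Other values followed no such order in ConA+Veh, where MHC class II genes summed to 4741, 1690 and 7819 CPM. *Hmox1* stood at 469, 1725 and 991 CPM there. In ConA+FICZ the MHC class II sums were 2621, 3238 and 5232 CPM and *Hmox1* stood at 449, 1510 and 678 CPM. The cells were ranked by the C1q that also selected them, and the groups of a library share their depth, so these orders carry no test.

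Cells with more UMIs of MHC class II genes tended to hold fewer of monocyte genes, but both kinds of UMI were found together in many cells. Of the cells with a UMI of *H2-Aa*, *H2-Ab1* or *H2-Eb1*, 6 of 8, 58 of 79, 14 of 18 and 81 of 101 in the 4 libraries also held one of *Ly6c2* or *Ccr2*. Over all C1q-positive cells the shares with *Ly6c2* or *Ccr2* were 85.7%, 78.8%, 82.8% and 86.2%. Free RNA was not subtracted, so whether a cell transcribed genes of both kinds was not tested. MHC class II molecules present antigen to CD4+ T cells, and their genes are low in monocytes fresh from the blood. After each cell was thinned to 1000 UMIs, the Spearman correlation of the monocyte list with the MHC class II list was -0.40 over 13 cells in Naïve, -0.36 over 145 in ConA+Veh, -0.56 over 29 in ConA+TCDD and -0.37 over 155 in ConA+FICZ. The cells of a library share its depth and free RNA, and UMIs of 1 list leave fewer for the other. *Cd74*, the invariant chain of MHC class II, stood at 1646, 2378, 1963 and 1880 CPM, far below the 10287, 7030 and 4015 CPM of the other phagocytes in Naïve, ConA+Veh and ConA+TCDD and close to their 1800 CPM in ConA+FICZ. In ConA+TCDD 53.6% of the *Cd74* UMIs came from 1 cell.

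**Figure D3:**
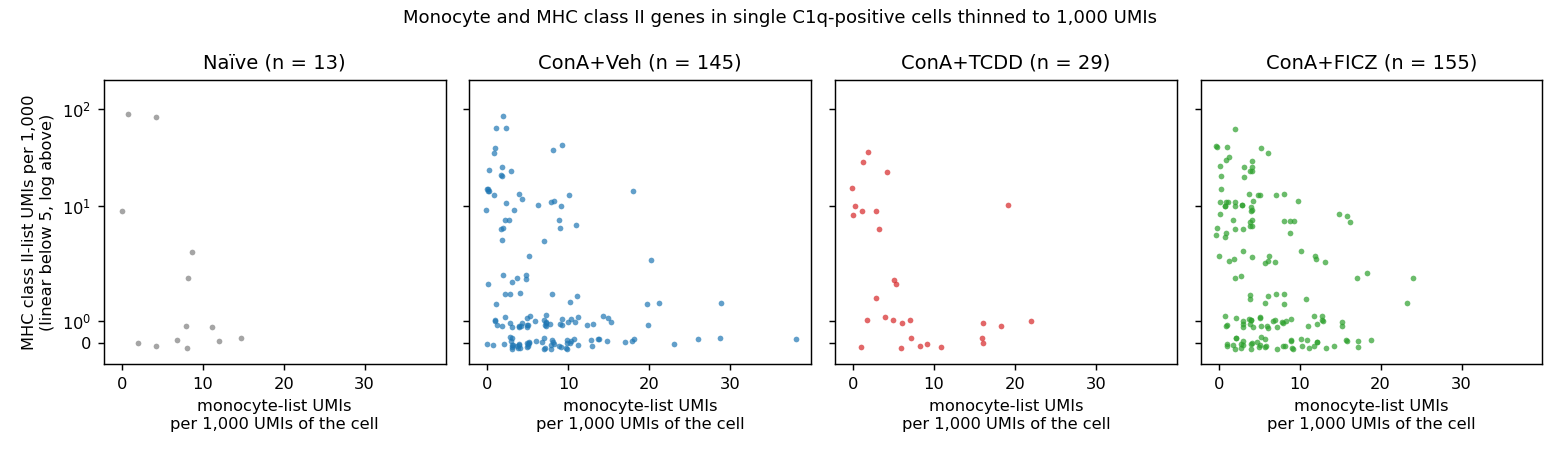
UMIs of the monocyte list (x axis) and of the MHC class II list (y axis, linear below 5 and logarithmic above) in single C1q-positive cells thinned to 1000 UMIs, 1 panel per library, with a small random offset so that points at the same value can be seen. Cells with the most MHC class II UMIs mostly held few monocyte UMIs, with exceptions in ConA+Veh such as cells with 42 and 38 MHC class II UMIs and 9 and 8 monocyte UMIs.

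*Hmox1*, part of the marker list for these cells, encodes heme oxygenase 1, which breaks down heme to biliverdin, iron and carbon monoxide, and lies on the plus strand of chromosome 8 (75093621 to 75100589). It stood at 1122, 1013, 641 and 815 CPM in the 4 libraries, and 53.9% of the Naïve UMIs came from 1 cell. The log2 ratio of ConA+Veh to Naïve, -0.15, became 0.35 with each cell weighted equally and 0.62 without the top cells. ConA+TCDD was lowest, at a log2 ratio to ConA+Veh of -0.66 (-0.89 to -0.44) for the pooled UMIs. Per cell the order was another, with a median of 1.43, 2.79, 4.002 and 2.09 UMIs per 10,000, highest in ConA+TCDD, and the log2 ratio was 0.056 with each cell weighted equally. The share of cells with a UMI was also highest there (24 of 29, against 106 of 151).

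**Figure D4:**
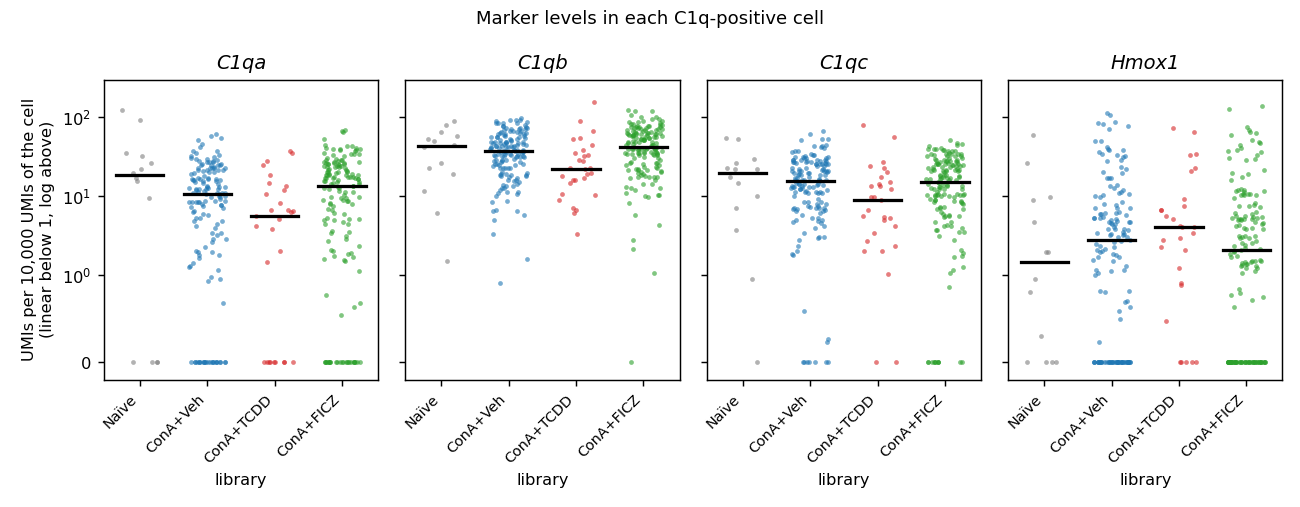
UMIs of *C1qa*, *C1qb*, *C1qc* and *Hmox1* per 10,000 UMIs of the cell (y axis, linear below 1 and logarithmic above) by library (x axis). Each point is 1 C1q-positive cell and each black line is the median of the library. *C1qb* is above 0 in all but 1 cell, while *Hmox1* has a UMI in 106 of 151 cells of ConA+Veh and in 107 of 159 of ConA+FICZ.

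The study had singled out *Lyz2*, *C1qb* and *Srgn* for its Kupffer cell cluster, and all 3 were read here in every library. *Lyz2*, lysozyme of myeloid cells, stood at 2377, 3169, 2004 and 2596 CPM in the 4 libraries, highest in ConA+Veh, whereas its median per cell, at 21.4, 15.7, 12.2 and 15.7 UMIs per 10,000, was highest in Naïve. *Srgn*, the core protein of granule proteoglycans, stood at 1343, 1665, 2727 and 1265 CPM and was highest in ConA+TCDD, 0.71 (0.59 to 0.83) above ConA+Veh on the log2 scale. *Srgn* is also a lymphocyte gene, and T cells held 682, 844, 1131 and 798 CPM, again with ConA+TCDD highest. None of the 3 passed 2-fold in any comparison.

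The comparison of ConA+Veh with Naïve asks what these cells look like after ConA against those of an untreated liver. In all, 4 inflammatory cytokine genes, 9 cell cycle genes and 4 type I interferon-stimulated genes were at least 2-fold higher in ConA+Veh, and *Pf4*, *Apoe*, *S100a4* and *Gbp2* were at least 2-fold higher in Naïve. Of 3873 genes with at least 50 UMIs in both libraries together, 255 were at least 2-fold higher in ConA+Veh (6.58%) and 156 at least 2-fold lower (4.03%), and the median log2 ratio was -0.03. With 14 cells on the Naïve side these counts were unsteady, and when the cell with the most UMIs of each gene was left out of both libraries they were 586 and 73. Of the genes past 2-fold 62.0% were higher, and 26.5% when levels were taken as mean UMI per cell with no depth correction.

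Inflammatory mediators stood out by size. All 6 tested genes of the inflammatory cytokine list had higher values in ConA+Veh, 4 of them at least 2-fold, with a median log2 ratio of 2.27. *Il18* (0.17, -0.95 to 1.53) and *Tgfb1* (0.44, -0.08 to 0.996) were under 2-fold, with intervals that include 0. The whole list held 57 UMIs in Naïve and 1611 in ConA+Veh. Its genes thus reached the minimum of 50 UMIs through ConA+Veh, and the filter favoured this count and median. *Il1b*, the cytokine interleukin 1β, stood at 63.1 CPM in Naïve and 516 in ConA+Veh, a log2 ratio of 3.03 (2.15 to 4.10), with 6 of its 10 Naïve UMIs in 1 cell. *Tnf* stood at 12.6 and 61.6 CPM and *Ptgs2*, the prostaglandin synthase COX-2, at 12.6 and 115 CPM, from 2 UMIs each in Naïve. *Il1rn*, the natural blocker of the interleukin 1 receptor, stood at 12.6 and 60.2 CPM. The NF-κB inhibitor genes *Nfkbia* (479 and 1549 CPM) and *Nfkbiz* (44.1 and 212 CPM), which NF-κB itself switches on, were 1.69 (1.36 to 2.04) and 2.27 (1.21 to 3.59) higher on the log2 scale.

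Chemokine genes were divided between the conditions. Of 14 tested, 5 were at least 2-fold higher in ConA+Veh and 2 lower. *Cxcl10*, with 4 UMIs in Naïve and 689 in ConA+Veh, and *Ccl24*, with 0 and 125, reached the UMI minimum through ConA+Veh. *Pf4*, 1 of the 2 lower genes, reached it through Naïve, with 163 UMIs against 23. As ConA+Veh held more UMIs, the filter favoured the count of higher genes. *Cxcl10*, which attracts CXCR3+ T cells, came first of the ranked genes, at 25.2 CPM in Naïve and 488 in ConA+Veh (4.27, 2.91 to 6.15). Its Naïve level rested on 4 UMIs. *Ccl4*, an inflammatory chemokine, stood at 88.3 and 706 CPM (2.999, 2.25 to 3.88), with 71.4% of its 14 Naïve UMIs in 1 cell. *Ccl24*, an eosinophil chemokine, was at 0 in Naïve and 88.5 CPM in ConA+Veh, at least 2.23 higher on the log2 scale when Naïve was set to 3 UMIs. *Pf4*, platelet factor 4, went the other way, from 1028 CPM in Naïve to 16.3 in ConA+Veh (-5.98, -6.68 to -5.35), with 65.6% of the Naïve UMIs in 1 cell.

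Interferon-related lists differed from each other. In the type I interferon list 10 of 12 tested genes had higher values, 4 of them at least 2-fold (*Ifit1*, *Ifit3*, *Rsad2* and *Usp18*), with a median log2 ratio of 0.78. *Rsad2*, an antiviral enzyme, stood at 12.6 and 130 CPM, from 2 UMIs in Naïve and 184 in ConA+Veh. It thus reached the UMI minimum through ConA+Veh, and the filter favoured the count of higher genes in this list and its median. In the list of interferon-γ GTPases and *Irf1*, 3 of 10 tested genes had higher values and 7 lower, with *Gbp5* at least 2-fold higher, *Gbp2* and *Gbp3* at least 2-fold lower and a median of -0.23. In the cell cycle list 9 of 17 tested genes were at least 2-fold higher and 1 (*Mcm2*) at least 2-fold lower, with a median of 1.53. The list held 156 UMIs in Naïve and 2300 in ConA+Veh, and *Ccna2* and *Ube2c* were at 0 in Naïve. Such genes reached the UMI minimum through ConA+Veh, so the filter favoured the count of higher genes. In Naïve 81.2% of the *Mcm2* UMIs came from 1 cell, and its log2 ratio of -1.30 became 0.57 without the top cells. *Top2a*, the DNA topoisomerase of dividing cells, stood at 18.9 and 139 CPM, and *Birc5*, a mitotic regulator, at 6.31 and 135 CPM. Beside them the granulocyte progenitor list summed to 240 CPM in Naïve and 362 in ConA+Veh, with *Elane* at 0 UMIs in Naïve and 76 in ConA+Veh, and the within-cell Spearman correlation of both lists was 0.34 over 145 thinned cells of ConA+Veh. The part of such cells in the cell cycle values was not tested. T cells of the same libraries also differed in cell cycle genes, with *Top2a* at 84.6 CPM in Naïve and 436 in ConA+Veh, and the part of free RNA from cycling T cells in the macrophage values was not tested. A UMI of *Mki67*, *Top2a* or *Birc5* was present in 1 of 14 cells in Naïve and 64 of 151 in ConA+Veh (42.4%).

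Efferocytosis genes, which serve the uptake of dying cells, had lower values in ConA+Veh than in the 14 cells of Naïve. All 8 tested efferocytosis and scavenger receptor genes had lower values in ConA+Veh, 2 of them at least 2-fold (*Scarb1* and *Lrp1*), with a median log2 ratio of -0.64. The list rested on 256 UMIs in Naïve. General macrophage genes also had lower values in 10 of 12 cases, with a median of -0.48. Without the top cell of each gene, the genes at least 2-fold lower fell from 156 to 73 over all genes, and the median log2 ratio over all genes became 0.24. *Lrp1*, a receptor that clears dying cells and lipoproteins, stood at 322 and 136 CPM. *Mrc1*, the mannose receptor CD206, stood at 139 and 16.3 CPM and *Cd163*, the receptor for haptoglobin and hemoglobin, at 170 and 12.03 CPM, both under the 50 UMIs needed for the count. *Apoe* stood at 1753 and 539 CPM (-1.70, -1.90 to -1.499) and was the single gene at least 2-fold lower of 10 tested in the list of lipid-associated macrophages, in which *Spp1* and *Cd9* were at least 2-fold higher and the median was 0.12. Also lower were *S100a4*, a calcium-binding protein, with 517 and 112 CPM (-2.21, -2.60 to -1.81), and *Gbp2*, an interferon-induced GTPase, with 845 and 271 CPM (-1.64, -1.93 to -1.35). Complement (median -0.40), lysosome (-0.09), MHC class II (-0.11) and heme and iron genes (0.00) showed at most 1 gene past 2-fold in either direction, against 6.58% higher and 4.03% lower over all genes, a share at which lists of this size hold few or none.

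The comparison of ConA+TCDD with ConA+Veh asks how these cells differed when the AhR ligand TCDD followed ConA. *Ccl24*, metallothioneins and *Gbp2* were higher in the 29 cells of ConA+TCDD, while *Hspa1a*, *Ccl3*, *Ccl4* and 3 heme and iron genes were lower. Of 4030 genes tested, 55 were at least 2-fold higher (1.36%) and 169 at least 2-fold lower (4.19%), with a median log2 ratio of -0.05. The higher genes were 24.6% of those past 2-fold, and 40% as mean UMI per cell. Without the top cell of each gene the counts were 27 and 374, and with each cell weighted equally they were 167 and 409.

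*Ccl24* came first of the ranked genes. It stood at 88.5 CPM in ConA+Veh and 911 in ConA+TCDD (3.36, 3.05 to 3.68), with 40.6% of its 266 UMIs in ConA+TCDD in 1 cell. With cells thinned to 1000 UMIs it was read in 6.21% of cells in ConA+Veh, in 34.5% in ConA+TCDD and in no T cell thinned the same way. Without thinning, 29 of 151 and 15 of 29 cells held a UMI. Chemokine genes as a list split again, with 2 of 13 at least 2-fold higher (*Ccl24* and *Cxcl9*) and 3 lower (*Ccl3*, *Ccl4* and *Ccl5*). *Ccl4* stood at 706 and 250 CPM (-1.497, -1.86 to -1.15) and *Ccl3* at 112 and 24.0 CPM (-2.22, -3.56 to -1.15). *Ccl5* is abundant in T cells, which held 513 and 432 CPM of it.

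Both metallothionein genes with enough UMIs to be tested, which encode small metal-binding proteins, were at least 2-fold higher. *Mt1* stood at 971, 771, 1819 and 910 CPM in the 4 libraries, which put ConA+TCDD above ConA+Veh by a log2 ratio of 1.24 (1.09 to 1.39). *Mt2* stood at 63.1, 28.3, 127 and 53.3 CPM (2.16, 1.48 to 2.84), with 48.6% of its 37 UMIs in ConA+TCDD and 90% of its 10 in Naïve in 1 cell. The difference was not confined to the C1q-positive cells. *Mt1* stood at 646 and 3373 CPM in the other phagocytes of ConA+Veh and ConA+TCDD and at 83.8 and 354 CPM in their T cells, and the part of free RNA in the macrophage value was not tested. The genes neighbour each other on the plus strand of chromosome 8, *Mt2* at 94172664 to 94173568 and *Mt1* at 94179082 to 94180327. Their promoters are shown because both genes were higher with an AhR ligand, with the AhR core letters GCGTG or CACGC in capitals. *Mt1*, plus strand of chr8:94178839-94179138, with 1 match that begins 194 bases before the start:
Mt1: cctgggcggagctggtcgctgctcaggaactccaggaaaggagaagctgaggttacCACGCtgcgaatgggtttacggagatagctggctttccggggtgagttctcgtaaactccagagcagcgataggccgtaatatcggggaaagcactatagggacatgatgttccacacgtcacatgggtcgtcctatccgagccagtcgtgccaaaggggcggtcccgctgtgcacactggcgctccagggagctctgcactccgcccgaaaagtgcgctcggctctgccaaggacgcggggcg
*Mt2*, plus strand of chr8:94172368-94172667, with 2 matches, which begin 52 bases before the RefSeq start and at base 21 when the start is counted as base 1:
Mt2: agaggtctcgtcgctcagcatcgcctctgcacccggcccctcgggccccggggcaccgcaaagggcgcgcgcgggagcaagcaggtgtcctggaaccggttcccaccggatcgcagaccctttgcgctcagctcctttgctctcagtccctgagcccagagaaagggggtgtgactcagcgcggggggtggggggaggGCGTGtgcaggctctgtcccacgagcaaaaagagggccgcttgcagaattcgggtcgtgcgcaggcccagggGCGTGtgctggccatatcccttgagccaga
The RefSeq starts of *Mt1* and *Mt2* also differ from the gene spans given, which are from GENCODE. As given above, 32.4% of all promoter windows hold these letters, and a match in a window is not a bound site.

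Other genes higher in ConA+TCDD were fewer and often rested on single cells. *Gbp2* stood at 271 and 723 CPM (1.42, 1.17 to 1.66). In the list of interferon-γ GTPases and *Irf1*, 9 of the 11 tested genes had higher values, with *Gbp2* alone past 2-fold. *Il1r2*, a decoy receptor for interleukin 1, stood at 173 and 493 CPM (1.51, 1.21 to 1.82) with 34.7% of the UMIs in 1 cell. *S100a9* and *Mmp8*, both neutrophil genes, were higher, but 94.2% of the *S100a9* UMIs came from 1 cell and the log2 ratio of 1.42 became -1.55 without the top cell of each library. Glycolysis and hypoxia genes had higher values in 14 of 17 cases (median 0.48), with *Bnip3* past 2-fold at 113 and 264 CPM.

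Among the genes lower in ConA+TCDD, *Hspa1a* came first, followed by *Gdf15* and *Hspa1b*. *Hspa1a*, encoding the chaperone HSP70, stood at 158, 108, 3.43 and 19.0 CPM in the 4 libraries, from 25, 152, 1 and 26 UMIs. Against ConA+Veh, the ConA+TCDD log2 ratio was -4.97 (-10.3 to -2.47). *Hspa1b*, its near-identical copy, whose reads can be confused with it, gave 14, 63, 0 and 18 UMIs. The other 9 genes of the heat shock list stayed within 2-fold. *Hspa1a* was also lower in the other phagocytes (164 and 23.0 CPM) and in T cells (14.2 and 2.58 CPM) of ConA+TCDD. *Gdf15*, a stress-induced cytokine, gave 75 UMIs in ConA+Veh and none in ConA+TCDD, at least 2.37 lower on the log2 scale when ConA+TCDD was set to 3 UMIs.

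Some heme and iron genes were lower as well. In the heme and iron list 9 of 10 tested genes had lower values, 3 at least 2-fold, with a median of -0.66. *Hmox1* was among the 9, and its log2 ratio of -0.66 became 0.056 with each cell weighted equally. *Blvrb*, biliverdin reductase B, stood at 294 and 127 CPM (-1.21, -1.74 to -0.73), *Slc11a1*, the phagosome metal transporter NRAMP1, at 147 and 65.1 CPM (-1.18, -1.94 to -0.50), and *Slc48a1*, a heme transporter, at 71.5 and 34.3 CPM (-1.06, -2.17 to -0.12). *Fth1*, the ferritin heavy chain, stood at 10943 and 6179 CPM. In the complement list 3 of 10 tested genes were at least 2-fold lower, *C1qc* among them, which was used in the selection, besides the C3a receptor gene *C3ar1* (-1.05, -2.31 to 0.00) and the factor B gene *Cfb* (-1.05, -2.55 to 0.16), which became 1.14 with each cell weighted equally. *Itgam* of the same list had a higher value (0.91, 0.48 to 1.34). *Apoe* stood at 539 and 209 CPM (-1.37, -1.77 to -0.99) and *Saa3*, an acute phase protein, at 376 and 130 CPM (-1.53, -2.05 to -1.05). In the type I interferon list 9 of 12 genes had lower values (median -0.47) with none past 2-fold. The monocyte, MHC class II and Fc receptor lists also had none past 2-fold. In the efferocytosis and scavenger receptor list 7 of 8 tested genes had lower values, with a median of -0.49. *Axl*, a receptor kinase for dying cells, stood at 34.7 and 13.7 CPM (-1.34, -3.27 to 0.11), from 49 and 4 UMIs, and *Itgb5*, an integrin chain, at 65.1 and 27.4 CPM (-1.25, -2.50 to -0.21), both past 2-fold, and with the cells selected after thinning 0 of 8 were.

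The comparison of ConA+FICZ with ConA+Veh had the most cells on each side, 159 and 151. *Pf4*, *Mrc1*, *Clec10a* and *Gpnmb* were at least 2-fold higher in ConA+FICZ, and 4 mitotic genes, *Hspa1a*, *Hspa1b* and *Rsad2* were at least 2-fold lower. Of 5657 genes tested, 136 were at least 2-fold higher (2.40%) and 39 at least 2-fold lower (0.689%). The median log2 ratio over all genes was 0.11, so that a small excess of higher values was general. With the median set to 0 the counts were 85 higher and 53 lower, and the higher genes were 61.6% of those past 2-fold in place of 77.7%, and as mean UMI per cell they were 59.3%. With each cell weighted equally 320 were higher and 130 lower.

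In the alternative activation list, 5 of 9 tested genes were at least 2-fold higher in ConA+FICZ and 1 lower, with a median of 1.13. Of the 5, *Mrc1*, *Clec10a* and *Cd163* reached the minimum of 50 UMIs only in this comparison, through ConA+FICZ. The filter therefore favoured genes high there, also in the efferocytosis and scavenger receptor list below, and the counts and medians are a description. *Mrc1* stood at 16.3 and 89.9 CPM (2.47, 1.81 to 3.18), and *Clec10a*, a galactose-binding lectin, at 10.6 and 43.1 CPM (2.02, 1.19 to 2.95). *Ccl24* stood at 88.5 and 239 CPM, but 78.0% of its ConA+FICZ UMIs came from 1 cell and its log2 ratio of 1.43 became -0.39 without the top cells. *Retnla*, a secreted protein of alternatively activated macrophages, gave 67 UMIs in ConA+Veh, 70.1% of them in 1 cell, and 5 in ConA+FICZ. In the efferocytosis and scavenger receptor list 9 of 10 tested genes had higher values (median 0.63), with *Mrc1*, *Cd163* and *Lrp1* past 2-fold. The *Cd163* ratio of 1.13 (0.26 to 2.05) became -0.35 with each cell weighted equally. *Lrp1* stood at 136 and 276 CPM (1.02, 0.77 to 1.28), with 3.44% of its ConA+FICZ UMIs in 1 cell, and it exceeded 2-fold by little.

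Several of the genes that were lower in ConA+Veh than in Naïve stood higher in ConA+FICZ than in ConA+Veh. All of these comparisons use the same ConA+Veh library, so the values are set side by side without a count of shared genes. *Pf4* stood at 1028, 16.3, 48.0 and 467 CPM in the 4 libraries. It was read in 31 of 155 thinned cells in ConA+FICZ against 3 of 145 (2.07%) in ConA+Veh (without thinning, 53 of 159 and 9 of 151), and its log2 ratio of ConA+FICZ to ConA+Veh was 4.84 (4.24 to 5.51). *Gbp2* stood at 845, 271, 723 and 735 CPM, *Ifitm2*, an interferon-induced membrane protein, at 1002, 308, 510 and 586 CPM, and *Itgam*, the CD11b chain of complement receptor 3, at 233, 118, 223 and 259 CPM. For these 4 genes ConA+Veh was the lowest library.

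Some of the largest ratios of ConA+FICZ came from single cells. *Aqp1*, a water channel, gave 112 UMIs in ConA+FICZ with 97.3% of them in 1 cell. All 52 UMIs of *Rspo3*, a Wnt pathway ligand of endothelial cells, and all 50 of *Sprr2b* came from 1 cell each, and none was found in ConA+Veh. *Fabp4*, a fatty acid carrier, went from a log2 ratio of 2.12 to -0.35 and *Ccl8* from 2.06 to -0.54 without the top cells. *Gpnmb*, a lysosomal membrane protein, was spread over more cells, with 60 UMIs, 13.3% of them in 1 cell, and stood at 9.20 and 43.8 CPM (2.25, 1.37 to 3.24). With 13 UMIs in ConA+Veh, it too reached the minimum of 50 UMIs through ConA+FICZ, so the filter favoured it.

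Lower in ConA+FICZ were 4 of 18 cell cycle genes (*Cdk1*, *Ccnb1*, *Birc5* and *Ube2c*), all of mitosis, with a list median of -0.36. *Birc5* stood at 135 and 65.8 CPM (-1.04, -1.42 to -0.67) and *Ube2c* at 129 and 38.7 CPM (-1.74, -2.21 to -1.29), and *Birc5* stood at 276 and 210 CPM in T cells. A UMI of *Mki67*, *Top2a* or *Birc5* was present in 34 of 159 cells (21.4%) against 64 of 151 (42.4%). *Hspa1a* stood at 108 and 19.0 CPM (-2.50, -3.16 to -1.90), *Gdf15* at 53.1 and 7.31 CPM (-2.86, -3.98 to -1.90), and *Ccl5* at 193 and 18.3 CPM (-3.40, -4.05 to -2.81). *Rsad2*, with 130 and 61.4 CPM, was the single gene past 2-fold among 14 tested type I interferon genes, of which 10 had lower values. *Il1b* stood at 516 and 281 CPM (-0.88, -1.06 to -0.70), under 2-fold. Of the granulocyte progenitor genes, 3 of 4 tested were at least 2-fold higher (*Mpo*, *Elane* and *Ctsg*), with 30.6% to 36.4% of their UMIs in 1 cell. *Mpo* and *Ctsg* reached the minimum of 50 UMIs only in this comparison, through ConA+FICZ, so the filter favoured this count.

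**Figure D5:**
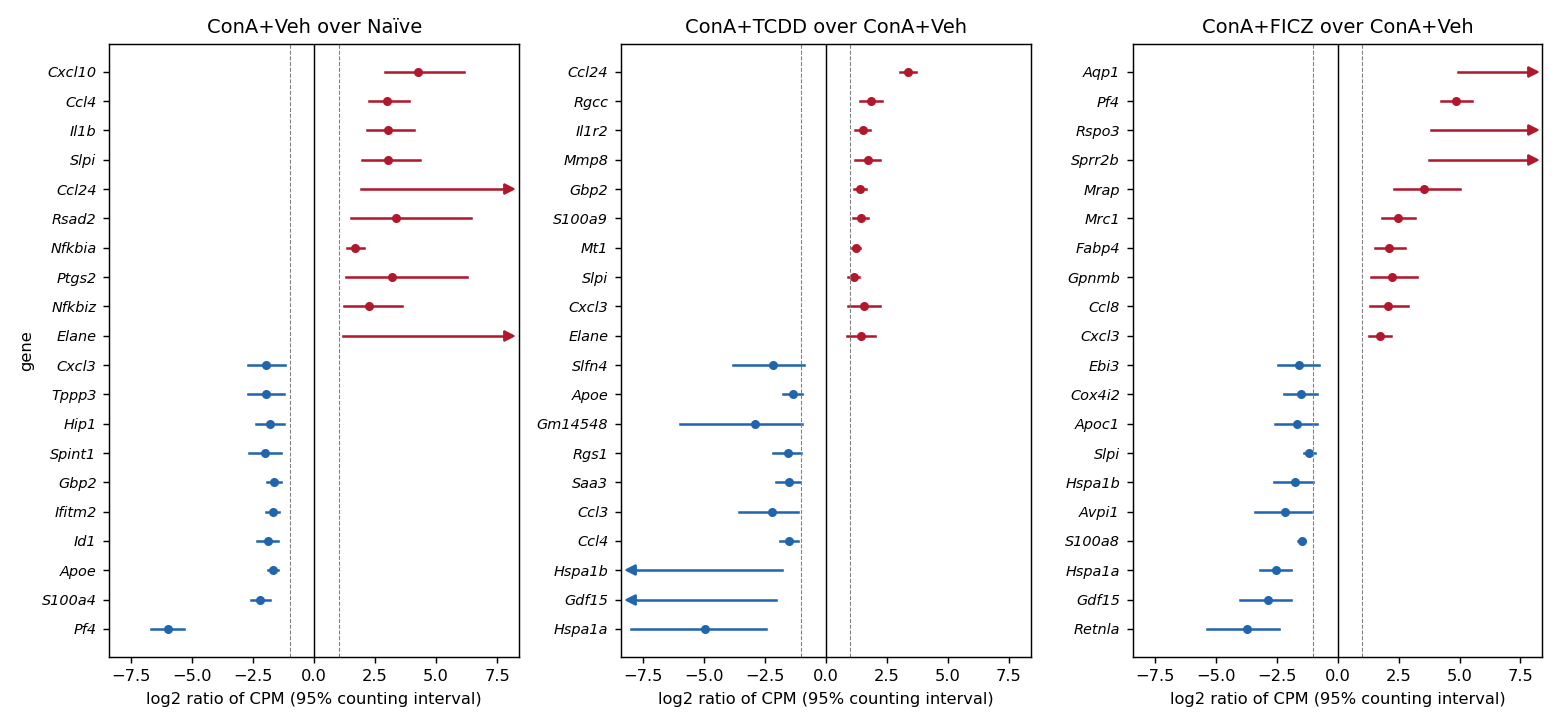
Log2 ratios of CPM in C1q-positive cells for 10 higher and 10 lower genes in each comparison, picked and ordered by the interval bound nearest 0 among genes at least 2 times as high as in T and B cells, so that genes with larger ratios but wider intervals or more lymphocyte RNA are not shown. Points are log2 ratios and lines are 95% counting intervals, dashed lines mark 2-fold, an arrow stands for a gene at 0 UMIs in 1 library, and the lower bound of *Hspa1a* under TCDD lies beyond the axis. *Cxcl10* leads ConA+Veh over Naïve, *Ccl24* leads ConA+TCDD over ConA+Veh, and *Pf4* is at the bottom of the first panel and near the top of the last.

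Most genes of the AhR list, which holds the receptor and its classic targets, were barely read in these cells. Of the 16 genes of the AhR list, 4 passed the minimum of 50 UMIs in the TCDD comparison and 5 in the FICZ comparison. *Cyp1a1* had no UMI in any library, which allows up to 18.9, 2.12, 10.3 and 2.19 CPM in the 4 libraries, and *Cyp1b1* had 2 UMIs, both in ConA+FICZ. *Tiparp* stood at 126, 93.4, 130 and 84.7 CPM, with log2 ratios to ConA+Veh of 0.48 (-0.08 to 1.01) for ConA+TCDD and -0.14 (-0.51 to 0.23) for ConA+FICZ. *Ahr* itself stood at 18.9, 46.0, 51.4 and 18.3 CPM, and was lower in ConA+FICZ than in ConA+Veh by a log2 ratio of -1.33 (-2.06 to -0.65), from 25 and 65 UMIs. None of the 4 and 5 genes tested was at least 2-fold higher with its ligand, and the other genes of the list held too few UMIs for a call. With FICZ all 5 had lower values, with a median log2 ratio of -0.38 against 0.11 over all genes. With TCDD 2 of the 4 had higher and 2 lower values, with a median of -0.18 against -0.05 over all genes. A *Cyp1a1* level below the limits given was not detectable at this depth.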

How the data were processed

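Reads were aligned to mm10 and counted by the authors using Cell Ranger 3.0.2, and the deposited matrices hold UMI counts of the cells they kept, 1 library per condition. Rows with the same symbol (36 of 31053) were summed. The cells, gene lists and tests were chosen with earlier results of these data known. UMIs were summed over the chosen cells and divided by their total (CPM). Intervals are exact Poisson, Clopper-Pearson or, for ratios, exact binomial, at 95%, and speak for counting error alone. As there was 1 library per condition, no test was made, and the per-cell test of the study was not repeated because cells are not replicates. Genes with at least 50 UMIs in both libraries together were called at 2-fold, and a gene at 0 was set to 3 UMIs for a bound. Of the list genes, 1 was not analysed here, and some others are not reported here. No doublet caller was run, and leaving out cells above the 95th percentile of UMIs stood in for it. T cells (at least 2 Cd3 UMIs) and B cells (at least 3 B cell UMIs) gave the background of free RNA.

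Genes named are marker genes of the cells, members of 39 lists, the 3 genes the study named for Kupffer cells, the 10 leading genes against other cells, and in each direction the 10 genes ranked by the interval bound nearest 0, at 2 times or more the CPM of T and B cells and without immunoglobulin, T cell receptor, mitochondrial and ribosomal protein genes. Genes outside this rule were named after their values were seen. Thinning to 1000 UMIs (seed 1) left out 1, 6, 0 and 4 chosen cells (order of libraries as in the report) and 21, 20, 15 and 9 T cells, whose median depth was 2836, 7125, 6551 and 8914 UMIs. Unthinned shares stand beside thinned ones. Positions are from the GENCODE annotation of GRCm38, matched by gene ID. Computation used pandas 2.3.3, scipy 1.17.1, numpy 2.4.6 and matplotlib 3.10.9 under Python 3.11.15, and the ratio code was tested on simulated counts. Alternatives covered the C1q threshold, thinning, mitochondrial share (over 10%), B cell limit, UMI minimum, scaling and single cells.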

Additional observations from a re-analysis of the deposited data

How the results depend on the processing

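No paired analysis was possible because each condition has 1 library, so no sample could be left out. Each of the 21 alternative values for the ratios of shares lay within its counting interval, but for ConA+FICZ over ConA+Veh the log2 ratio of 0.20, whose interval includes 0, came close to 0 without cells over 10% mitochondrial UMIs (6.36% against 6.34% of cells) and with no limit on T and B cell transcripts (6.614% against 6.585%). Counts of genes past 2-fold moved more than these ratios of shares, and the cause was not tested beyond what each setting does. For ConA+Veh over Naïve, 255 genes were higher and 156 lower as reported, and 475 and 251 with each cell weighted equally, 154 and 428 as mean UMI per cell without depth correction, 597 and 543 at a minimum of 20 UMIs and 99 and 47 at 100. For ConA+TCDD over ConA+Veh, 55 were higher and 169 lower as reported, and 104 and 323 with cells thinned, 167 and 409 with equal weight, 217 and 486 at 20 UMIs and 21 and 50 at 100. For ConA+FICZ over ConA+Veh, 136 were higher and 39 lower as reported, 320 and 130 with equal weight, 394 and 122 at 20 UMIs and 37 and 23 at 100, and 80 were higher as mean UMI per cell and 85 with the median log2 ratio set to 0. The higher share of called genes as mean UMI per cell was 26.5%, 40.0% and 59.3% in the 3 comparisons, in place of 62.0%, 24.6% and 77.7%. A setting chosen after seeing the data left out, for each gene, the cell with most of its UMIs in each library. It gave 586 higher and 73 lower genes (88.9% higher) for ConA+Veh over Naïve and 27 and 374 (6.73% higher) for ConA+TCDD over ConA+Veh. The other such setting, with no limit on T and B cell transcripts, moved none of these counts by over 1.5 times.

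Of 1848 alternative log2 ratios of single genes, 1615 stayed within their interval, 210 moved and 23 of at least 2-fold as reported changed sign, as did 16 of the others, which were under 2-fold as reported. Shares of cells with a UMI depended more on depth, as 74 of 144 alternative values for 12 genes left their interval, 37 of 48 without thinning, 23 at 500 UMIs and 14 at 2000. For ConA+Veh over Naïve, *Cxcl3* became 2.31 and *Mt2* 1.94 without the top cells. *Ccnb1* became -0.37 without the cells of most UMIs. *Mcm2* became 0.43 at a C1q threshold of 10, 0.62 with cells thinned, 0.36 without the cells of most UMIs and 0.57 without the top cells, and *Retnla* -0.67 with cells thinned and -0.40 without the top cells. For ConA+TCDD over ConA+Veh, *S100a9* became -2.56 without the cells of most UMIs and -1.55 without the top cells, *Slpi* -0.56 without the cells of most UMIs, *Cfb* 1.14 with equal weight, and with cells thinned *Cxcl3* became -0.028 and *Retnla* 0.55. For ConA+FICZ over ConA+Veh, with equal weight *Fabp4* became -0.32, *Ccl24* -0.64 and *Cd163* -0.35. Without the top cells *Fabp4* became -0.35, *Ccl8* -0.54 and *Ccl24* -0.39, *Ccl24* became -0.66 without the cells of most UMIs, and *Cxcl3* -0.32 with cells thinned. Depth limits Naïve and ConA+TCDD most, where 1 UMI is 6.31 and 3.43 CPM.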

Other observations

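Further levels of lysosome, Fc receptor, immediate early and regulator genes in C1q-positive cells follow. Over all genes tested, 6.58% were at least 2-fold higher and 4.03% lower in ConA+Veh over Naïve, 1.36% and 4.19% in ConA+TCDD over ConA+Veh, and 2.40% and 0.689% for FICZ, so that lists of this size hold few calls or none at the general rate. Lysosome genes were among the most abundant, with a summed level of 14483, 12197, 10605 and 13538 CPM in the 4 libraries, led by *Psap*, which activates lysosomal lipid breakdown (3234, 2779, 2377 and 2599 CPM). Of the 17 lysosome genes tested, *Lipa*, the lysosomal acid lipase, was the single one past 2-fold in any comparison, at 80.0 CPM in ConA+Veh and 37.7 in ConA+TCDD. Fc receptor and adaptor genes summed to 6620, 6852, 5590 and 6925 CPM, with none of the 9 or 10 tested past 2-fold. Immediate early genes, which can respond to tissue dissociation, summed to 5668, 4245, 3747 and 4812 CPM, with *Fosb* alone past 2-fold, lower in ConA+Veh than in Naïve.

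In the list of macrophage transcription factors, of which 13 to 15 were tested, *Cebpa* was lower in ConA+Veh than in Naïve and higher with FICZ than in ConA+Veh, and with TCDD *Maf* and *Tfec* were higher and *Klf4* lower. In the receptor list *Csf1r* was lower in ConA+Veh than in Naïve and *Il1r2* higher with TCDD. Growth factor and cytokine receptor genes had higher values in ConA+FICZ than in ConA+Veh in 12 of 13 cases with a median log2 ratio of 0.38 and none past 2-fold, against a median of 0.11 over all genes. *Maf* stood at 183, 111, 226 and 161 CPM in the 4 libraries and was at least 2-fold higher in ConA+TCDD than in ConA+Veh (1.02, 0.59 to 1.45). *Spp1*, osteopontin, stood at 208, 520, 620 and 482 CPM, with 53.0% of its ConA+TCDD UMIs in 1 cell. *Nos2*, the inducible nitric oxide synthase, gave 0, 20, 19 and 48 UMIs, of which 40%, 42.1% and 41.7% came from 1 cell in ConA+Veh, in ConA+TCDD and with FICZ.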
